A study of Mus musculus with 8 samples.

Results

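The genes described are those for the proteins of the cytosolic ribosome, in mouse acute myeloid leukaemia cells taken from the bone marrow after chemotherapy. They were chosen by name alone: RefSeq protein-coding genes whose symbol begins with Rpl or Rps and a digit, with Rplp0, Rplp1, Rplp2 and Rpsa, and without the Rps6k kinases, names containing -ps and Rps19bp1. This gave 88 of the 27179 genes in the count table, 34 of the small and 54 of the large subunit. Another 6 matching names, which RefSeq lists as pseudogenes, were left out.

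The cells carried MLL-AF9, a fusion oncogene of leukaemia, with green fluorescent protein (GFP, which the labels place under “the ubiquitin transporter”) and a luciferase driven by the β-actin promoter, and the labels give their genotype as WT. They came from a single moribund mouse, were expanded in culture with SCF, IL-3 and IL-6, and were given intravenously to unconditioned male recipients of 8 to 10 weeks. Every mouse of both groups received 5+3, which combines daily cytarabine (100 mg/kg, 5 days) and, over the first 3 of those days, doxorubicin (3 mg/kg), and living GFP-positive marrow cells were sorted at the point of greatest response. The groups differ in diet: 5 libraries came from mice on the standard amino acid diet (AA 5+3) and 3 from mice on a diet free of leucine, isoleucine and valine, the branched-chain amino acids (BCAA 5+3 in the sample names, read as BCAA-free from the series' design). The labels call the libraries biological replicates, and those of 1 group differed from each other by far more than sampling noise. The question was how the diet without branched-chain amino acids changed gene expression in leukaemia cells under chemotherapy.

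A ribosome holds a small subunit, which reads the messenger RNA, and a large subunit, which joins amino acids into a chain. Nearly every ribosomal protein is present as 1 copy per ribosome, so the genes are made in step. Their transcripts begin with a 5′ terminal oligopyrimidine (TOP) tract, a C followed by a run of C and U bases, which the protein LARP1 binds. Through it the kinase mTORC1, which responds to leucine and other amino acids, sets how much of these transcripts is translated. That control acts mainly on translation, which these RNA counts do not measure. Mammalian genomes hold many processed pseudogenes of these genes, so that short reads from them often match several places.

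The first bases of the transcripts are shown because the TOP tract is the feature that ties these genes to amino acid supply. The sequences are from RefSeq on GRCm38.p6, which gave starts for 68 of the 88 genes. Each line gives 30 bases, 15 before the annotated start and 15 from it, 5′ to 3′, with capitals for the unbroken run of C and T that covers the start.
Rps6 (chr4:86857353-86857382, minus strand): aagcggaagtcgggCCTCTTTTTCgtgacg
Rps10 (chr17:27635230-27635259, minus strand): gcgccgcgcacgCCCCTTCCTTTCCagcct
Rplp2 (chr7:141447636-141447665, plus strand): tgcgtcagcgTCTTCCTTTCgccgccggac
Rpl28 (chr7:4792950-4792979, plus strand): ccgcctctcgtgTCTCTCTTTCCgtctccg
Rps27 (chr3:90213634-90213663, minus strand): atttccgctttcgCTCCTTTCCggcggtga
Rps27rt (chr9:114982725-114982754, minus strand): agaacttatcccttgCTTTCCggcggtgac
Rplp0 (chr5:115559452-115559481, plus strand): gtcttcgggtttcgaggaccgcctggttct
Rpl22l1 (chr3:28805493-28805522, plus strand): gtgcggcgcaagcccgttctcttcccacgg

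The first 6 of these starts lie in such a run, whereas Rplp0 and Rpl22l1 have none at the annotated base, and in Rpl22l1 a run begins at the base after it. Rps27rt shares with Rps27 the last bases of the tract, CTTTCC, and the bases after them, but not the start of the tract. Read on the transcribed strand from the annotated first base, a C with at least 4 further C or T bases stood at the start of 15 of the 68 genes (22.1%), against 467 of 17492 protein-coding genes with a start in the same table (2.67%). Within 10 bases either side of the start the motif was found in 42 of the 68 (61.8%) and in 34.9% of all protein-coding genes, since short pyrimidine runs are common. The median log2 fold change between the diets, defined below, was 0.23 over the 15 tested genes with the tract at the start and 0.22 over the 50 tested genes with a sequence shown in the table and no tract at that base. This split follows the annotated base alone, and 42 of the 68 had the motif within 10 bases of it. It therefore does not settle which transcripts begin with a TOP tract, nor whether the difference depends on one.

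The libraries held 14851240 to 38966911 counts. Levels are given in CPM, the usual unit of counts scaled to library size, here with TMM factors between libraries. The sorted cells expressed genes of the leukaemia, among them the homeobox genes Hoxa9 (174.7 ± 15.3 CPM, SD, n = 5, on the standard diet and 165.2 ± 24.6 CPM, SD, n = 3, without BCAA) and Meis1 (128.4 ± 11.2 and 120.1 ± 7.55). The summed level of 12 genes of this leukaemia programme was 10270 to 12770 CPM on the standard diet and 8407 to 9404 CPM without BCAA, without overlap. Of the 12, 11 had a negative log2 fold change (median -0.19), where 52.6% of all tested genes had a positive one. None was called (0.756% of all tested genes). Most of the sum is Mpo, the myeloperoxidase of myeloid cells, at 8798 ± 1044 CPM (SD, n = 5) and 6236 ± 635.2 CPM (SD, n = 3). Its groups did not overlap, as for 4.68% of all tested genes in this direction. Its log2 fold change was -0.50 (adjusted p = 0.0605 in edgeR's quasi-likelihood test). Markers of other marrow cells were present at differing levels. The summed level of 10 B cell markers was 11.1 to 20.6 CPM on the standard diet and 29.6 to 131.5 CPM on the BCAA-free diet, that of 10 erythroid markers 6.91 to 17.6 and 13.1 to 59.3 CPM, and that of 10 mature neutrophil markers 789.5 to 6485 and 1590 to 6369 CPM, and none of the markers in these lists was at 0 in every library. The summed level of 12 immediate early genes, which respond to handling, was 85.0 to 113.5 CPM and 126.4 to 139.7 CPM, without overlap. The summed level of 10 macrophage markers was lower without BCAA, at 343 to 424.8 CPM and 234 to 328.7 CPM, but most of it comes from Vcam1 and Adgre1. Of the 10, 7 had a positive log2 fold change, 5 of them at an unadjusted p under 0.05, among them the complement genes C1qa, C1qb and C1qc. The other 3 were negative, 2 of them at an unadjusted p under 0.05, Vcam1 and Adgre1. The median over all 10 was 0.88. At that p 6.21% of all tested genes were higher and 7.26% lower. The part of all these marker levels in the results below was not tested. In such bulk RNA, a change in the mix of cells and a change in RNA per cell cannot be told apart.

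Ribosomal protein genes took a slightly larger part of the RNA in the BCAA-free libraries, without a single gene passing the test. Their share of all counts was 2.11%, 1.48%, 1.77%, 1.97% and 1.90% in standard-diet replicates 1 to 5 and 2.04%, 2.05% and 2.67% in BCAA-free replicates 1 to 3. The groups overlapped, with standard-diet replicate 2 the lowest and BCAA-free replicate 3 the highest. The mean share was 1.85 ± 0.238% (SD, n = 5) and 2.25 ± 0.360% (SD, n = 3).

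Gene by gene, 85 of the 88 passed the filter on low counts and were tested. The log2 fold change of BCAA-free against standard diet was positive for 83 of them (97.6%), against 52.6% of all 13364 genes tested, with a median of 0.23 against 0.02 for all genes. The median corresponds to a 1.17-fold difference. None of the 85 had an adjusted p under 0.05 in edgeR's quasi-likelihood test (background 0.756% of all genes called, 0.217% higher and 0.539% lower), in DESeq2 (2.81%) or in limma-voom (0.479%). At an unadjusted p under 0.05, edgeR had 20 higher (23.5%; 6.21% of all genes) and none lower (7.26% of all genes), and DESeq2 had 24 higher (6.48% of all genes) and limma-voom 18 (5.84%). The smallest adjusted p was 0.155 in edgeR.

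**Figure D1:**
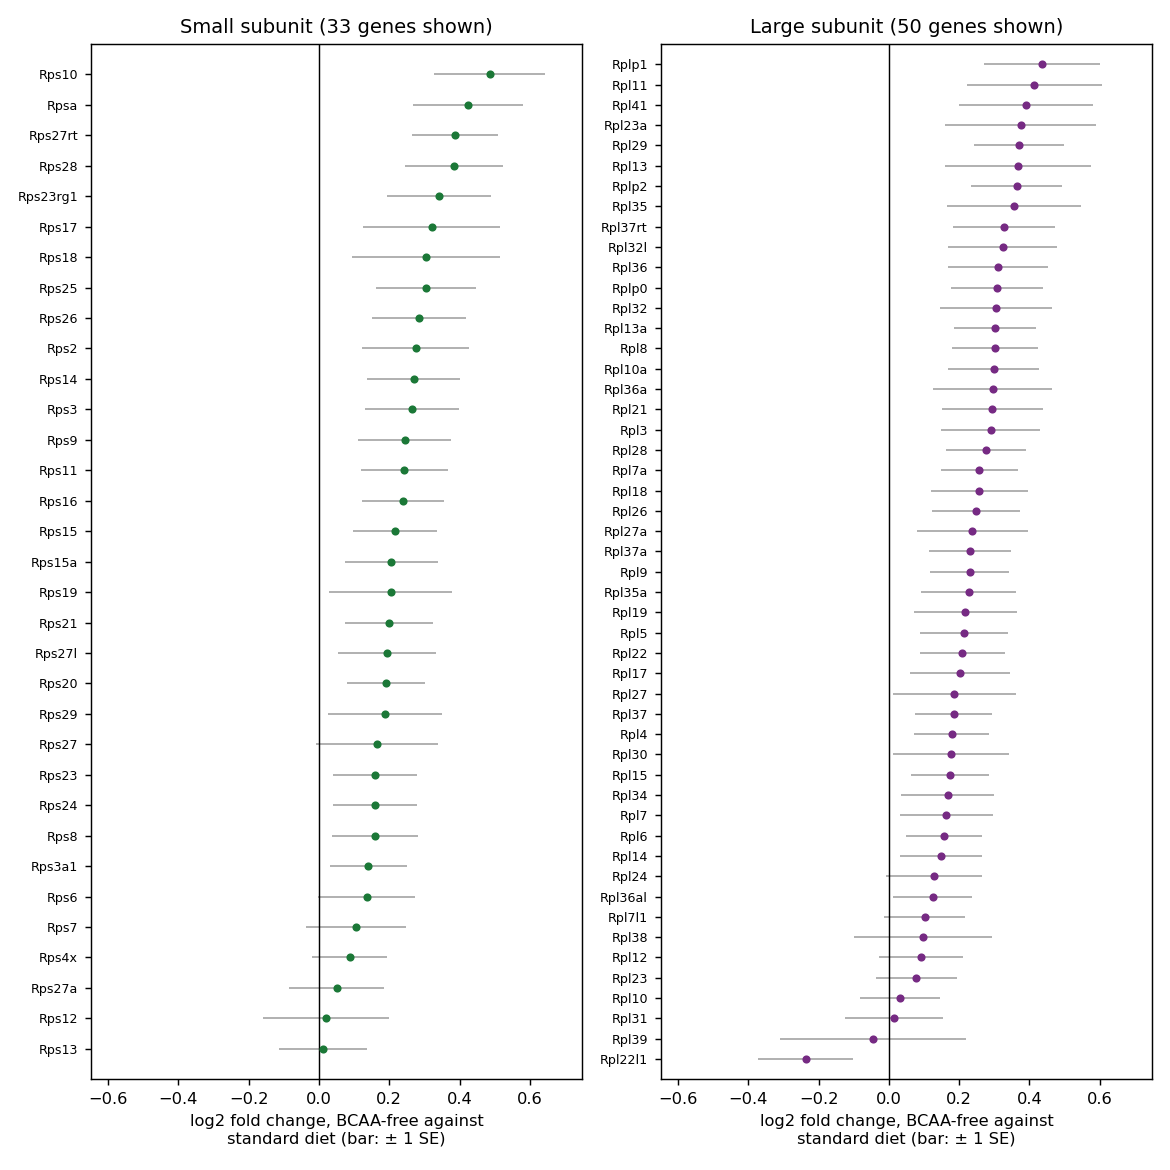
Log2 fold change of BCAA-free (n = 3) against standard diet (n = 5) for 83 of the 85 tested genes, small subunit on the left and large subunit on the right, with bars of 1 standard error. All but Rpl22l1 and Rpl39 lie above 0, none above 0.49, and none passed the test.

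The members moved together from library to library, and libraries of 1 diet differed by more than the median difference between the diets. For each gene the level in a library was set against its own mean over the 8 libraries, on a log2 scale with 0.5 CPM added. The median of that difference over the 85 genes was 0.09, -0.39, -0.10, 0.03 and -0.05 in standard-diet replicates 1 to 5, and 0.04, 0.04 and 0.36 in BCAA-free replicates 1 to 3. Standard-diet replicate 2 and BCAA-free replicate 3 thus stood apart from the other 6 libraries, on opposite sides.

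BCAA-free replicate 3 was the highest of the 8 libraries for 68 of the 85 genes (17.9% of all tested genes had it highest), and standard-diet replicate 2 was the lowest for 74 (19.0% of all). Both held for 66 genes, against 5.78% of all tested genes. The level in the first was a median of 1.67 times that in the second, up to 2.53 times. BCAA-free replicates 1 and 2 were each above all 5 standard-diet libraries for 19 of the 85 genes, near the 22.3% and 21.8% of all tested genes for which this held. As a description over 8 libraries, which share depth and scaling, the correlation of a gene with the median of the other members had a median of 0.92 and was over 0.8 for 66 genes.

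**Figure D2:**
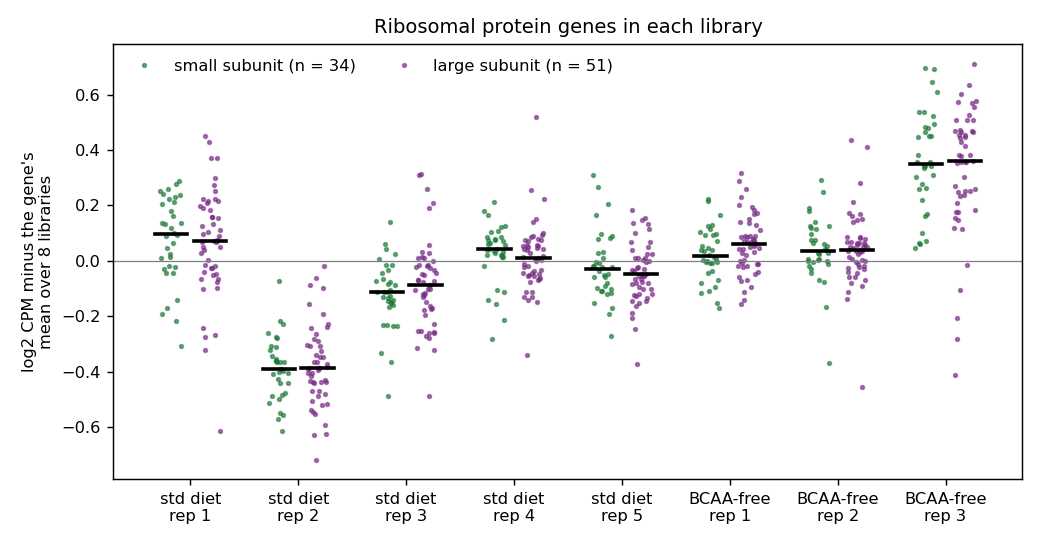
Level of each tested ribosomal protein gene in each library as log2 CPM minus the gene's own mean over the 8 libraries (points, small subunit n = 34, large subunit n = 51; black bars are medians). The medians of both subunits lie near -0.39 in standard-diet replicate 2 and near 0.35 in BCAA-free replicate 3, and between -0.11 and 0.10 in the other 6 libraries.

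Without BCAA-free replicate 3 the median log2 fold change was 0.11 and 2 genes had an unadjusted p under 0.05. Without standard-diet replicate 2 it was 0.15, with 12 genes higher at an unadjusted p under 0.05. With both left out together, a choice made after seeing the data, it was 0.04, 64 of the 86 genes then tested were positive and 1 was higher at an unadjusted p under 0.05. Without standard-diet replicate 1, the highest of its group, the median was 0.29, with 37 such genes, and without BCAA-free replicate 1 or replicate 2 it was 0.29 and 0.27, with 31 such genes each time.

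**Figure D3:**
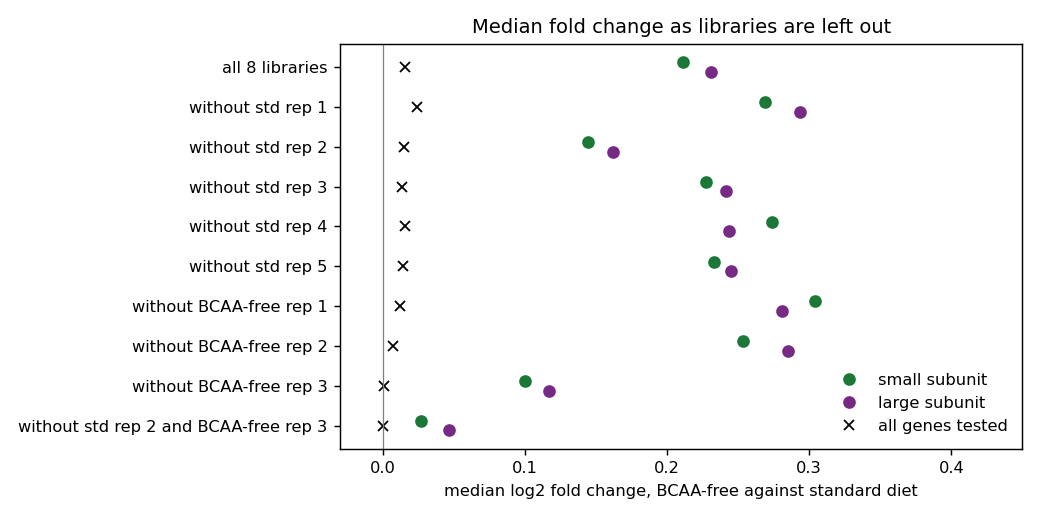
Median log2 fold change of BCAA-free against standard diet over the small-subunit genes, the large-subunit genes and all genes tested, with all 8 libraries and with libraries left out. Both subunits shift together, lowest without standard-diet replicate 2 and BCAA-free replicate 3 (0.03 and 0.05).

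Other measures differed in the same libraries, and their part in the result was not tested. Ribosomal protein transcripts are short, with a median of 775 bases against 2818 for all tested genes of known length. The 816 other tested genes of up to 1000 bases had a median difference from their own means of -0.21 in standard-diet replicate 2 and 0.17 in BCAA-free replicate 3, the same direction as the ribosomal protein genes and smaller. These short genes had a median log2 fold change of 0.08. With trends of GC content and length removed from each library, the ribosomal protein median was 0.17. The summed level of erythroid markers was highest in BCAA-free replicate 3 (59.3 CPM). In standard-diet replicate 2 it was 17.6 CPM, the highest of that group rather than the lowest. The sum of neutrophil markers was lowest in standard-diet replicate 2 (789.5 CPM) and next lowest in BCAA-free replicate 3 (1590 CPM).

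Small and large subunits had nearly the same median. The median log2 fold change was 0.21 over the 34 tested small-subunit genes, all of them positive, and 0.23 over the 51 large-subunit genes, 49 of them positive, and no gene of either was called. At an unadjusted p under 0.05 stood 7 small-subunit and 13 large-subunit genes, all higher. The small subunit held 42.3%, 42.2%, 42.3%, 43.1% and 42.8% of ribosomal protein counts in standard-diet replicates 1 to 5 and 42.1%, 42.5% and 42.9% in BCAA-free replicates 1 to 3. The groups overlapped almost fully, at 42.5 ± 0.379% (SD, n = 5) and 42.5 ± 0.423% (SD, n = 3). Even standard-diet replicate 2 and BCAA-free replicate 3, which differed most in overall level, had shares of 42.2% and 42.9%. The mean log2 CPM of small-subunit genes minus that of large-subunit genes was 0.42 ± 0.02 (SD, n = 5) and 0.42 ± 0.04 (SD, n = 3), a difference in which the genes' lengths and uniqueness also enter.

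In the small subunit, Rps10, a protein of the head of that subunit that is mutated in some Diamond-Blackfan anaemia, had the largest log2 fold change of all members. The gene lies at chr17:27630415-27635244 (GRCm38.p6, as all coordinates here). Its level was 108.9, 63.9, 74.8, 87.3 and 86.9 CPM in standard-diet replicates 1 to 5 and 97.8, 112.2 and 144.3 CPM in BCAA-free replicates 1 to 3. BCAA-free replicate 1 fell inside the range of the standard diet, so the groups overlapped (log2 fold change 0.49, SE 0.16, adjusted p = 0.186 in edgeR). The retrocopy Rps27rt was at 248.6, 217.1, 263.4, 285.1 and 259.6 CPM and at 287.8, 305.6 and 406.6 CPM. Its lowest BCAA-free library lay just above the highest standard-diet one (log2 fold change 0.39, SE 0.12, adjusted p = 0.168 in edgeR). Rps28, another gene of Diamond-Blackfan anaemia, did not overlap either, at 30.7 to 40.9 CPM on the standard diet and 42.4 to 55.5 CPM without BCAA (adjusted p = 0.248 in edgeR).

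Rps6 (chr4:86854099-86857367), the substrate of the S6 kinases that act below mTORC1, was at 379.1, 240.3, 287.6, 342.6 and 324.9 CPM on the standard diet and 305.5, 322.4 and 409.8 CPM without BCAA. The groups overlapped (log2 fold change 0.14, SE 0.14, adjusted p = 0.717 in edgeR), and without BCAA-free replicate 3 the log2 fold change was -0.0078. Rps13, also of the small subunit, had the smallest positive value, at 44.5 ± 4.64 CPM (SD, n = 5) and 44.9 ± 1.37 CPM (SD, n = 3). Rpsa, which is also known as a laminin receptor, was at 159.1 to 254.6 CPM and 224.2 to 338.5 CPM, with a log2 fold change of 0.42 (SE 0.16, adjusted p = 0.261 in edgeR). The highest levels per length in this subunit, as mean CPM per kb of transcript, were those of Rps15 (867.4) and Rps24 (780.5).

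**Figure D4:**
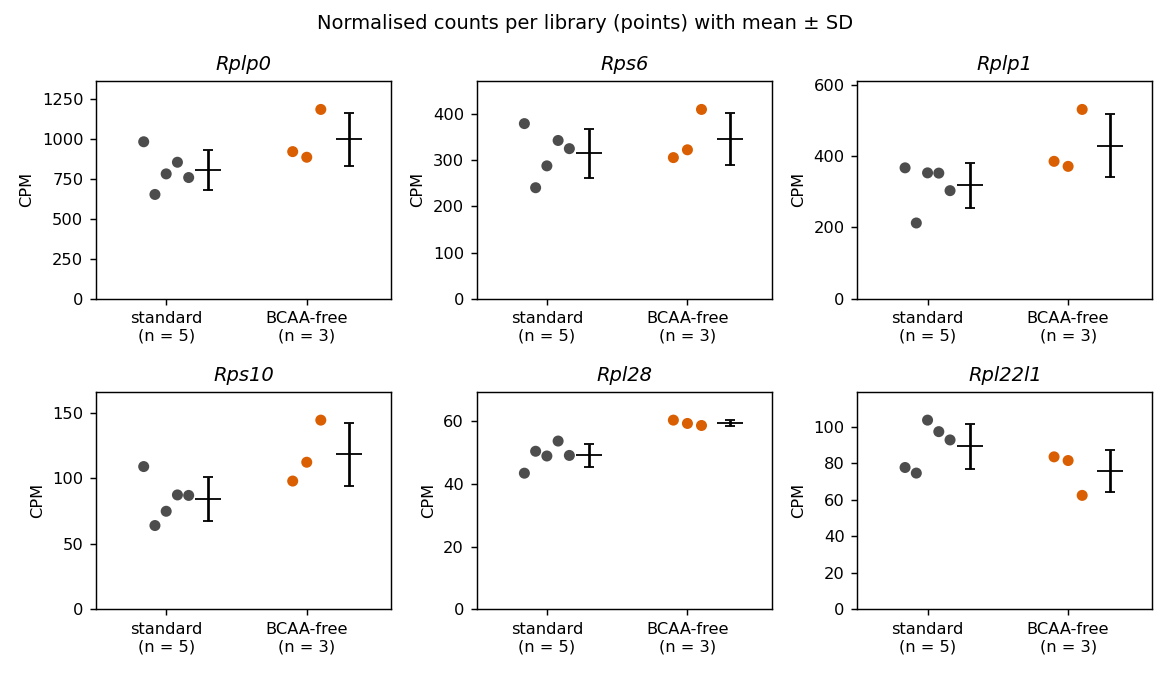
Level in CPM in each library (points) with mean ± SD for 6 genes on the standard (n = 5) and BCAA-free diet (n = 3); each axis starts at 0. In the panels for Rplp1 and Rpl28 all 3 BCAA-free points lie above the 5 others, while those for Rplp0, Rps6, Rps10 and Rpl22l1 overlap.

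In the large subunit the P stalk, the flexible arm of Rplp0 with Rplp1 and Rplp2 that recruits elongation factors, was among the groups with the higher values. Rplp0 (chr5:115559467-115563729) was at 980.9, 651.6, 780.1, 852.9 and 757.3 CPM in standard-diet replicates 1 to 5 and at 919.3, 884.2 and 1183 CPM in BCAA-free replicates 1 to 3. Standard-diet replicate 1 exceeded both lower BCAA-free libraries (log2 fold change 0.31, SE 0.13, adjusted p = 0.322 in edgeR). Rplp1 was at 366.6, 212.1, 352.5, 351.8 and 302.7 CPM and at 384.8, 370.7 and 530.2 CPM. These groups did not overlap, by a margin of a few CPM (log2 fold change 0.43, SE 0.17, adjusted p = 0.275 in edgeR). Rplp2 was at 148.2 ± 22.2 CPM (SD, n = 5) and 190.6 ± 25.8 CPM (SD, n = 3), with overlap (log2 fold change 0.36, SE 0.13).

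Rpl5 and Rpl11, which with 5S rRNA form the particle that can also bind Mdm2 and stabilise p53, both had positive values, and the difference between them was not tested. Rpl11 was at 73.6, 35.5, 44.3, 52.0 and 41.5 CPM and at 57.3, 65.4 and 74.9 CPM, with standard-diet replicate 1 close to the highest BCAA-free library (log2 fold change 0.41, SE 0.19). Rpl5 was at 242.4 ± 37.6 CPM (SD, n = 5) and 281.3 ± 28.6 CPM (SD, n = 3), with a log2 fold change of 0.21 (SE 0.13). The adjusted p was 0.365 and 0.478 in edgeR. Of the proteins that line the tunnel for the growing chain, Rpl4 was at 1742 ± 160.1 and 1971 ± 199.0 CPM (log2 fold change 0.18), Rpl17 at 38.8 ± 6.30 and 44.8 ± 2.92 CPM (0.20), and Rpl39 at 8.69 ± 2.02 and 8.37 ± 2.98 CPM (-0.04, SE 0.26), each as mean ± SD over 5 and 3 libraries.

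Rpl29, a basic protein of the large subunit's surface, was at 67.7 to 98.0 CPM and at 97.5 to 127.3 CPM, with BCAA-free replicate 1 just below the highest standard-diet library (log2 fold change 0.37, SE 0.13, adjusted p = 0.213 in edgeR). Rpl28, singled out after its values were seen, separated the groups without leaning on BCAA-free replicate 3, at 43.5, 50.5, 49.0, 53.7 and 49.2 CPM against 60.4, 59.4 and 58.7 CPM. Its log2 fold change was 0.28 (SE 0.11, adjusted p = 0.305 in edgeR), and of all members it had the smallest adjusted p (0.387) when standard-diet replicate 2 and BCAA-free replicate 3 were both left out. Per kb of transcript, Rpl8 (1233 CPM) and Rpl32 (1202 CPM) were the highest of the subunit.

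In 8 of the 85 genes (9.41%) all BCAA-free libraries were above all standard-diet libraries, against 4.17% of all tested genes, and in none were they all below (4.68% of all). Among them were Rps27rt, Rps28, Rpl13a, Rplp1, Rpl28 and Rpl7a. With standard-diet replicate 2 and BCAA-free replicate 3 set aside, BCAA-free replicates 1 and 2 were above the other 4 standard-diet libraries for 9 genes, the same 8 and Rps27l, which is 9 of 85 where 11.2% of all tested genes did so.

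The shared movement was not followed by 5 genes, chosen after their values were seen, whose correlation to the median of the other members was under 0.3. They were Rpl10, Rpl22l1, Rpl27, Rpl31 and Rpl38. Rpl22l1 ran against it (correlation -0.38). Rpl10, which completes the large subunit late in its assembly, was at 137.8, 152.5, 188.9, 159.2 and 175.3 CPM and at 168.1, 153.4 and 177.3 CPM, with standard-diet replicate 1 the lowest. Rpl38, known for its part in translation of Hox mRNAs, was at 27.7, 36.3, 53.0, 51.0 and 44.7 CPM and at 39.9, 56.9 and 39.6 CPM, and here too standard-diet replicate 1 was the lowest and BCAA-free replicate 2 the highest.

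Some ribosomal proteins have paralogues, separate genes whose proteins can take the same place in the ribosome. The count of the paralogue was divided by that of the canonical gene in each library, which cancels library size, and the log2 ratio was compared by a two-sided exact permutation test over all 56 ways to divide the libraries into 5 and 3 (smallest possible p 0.0357). Of 9 pairs considered, 6 had enough counts. None of the 6 passed the test between the diets, with adjusted p from 0.643 to 0.857 over the pairs. With so few libraries the adjusted p of 1 fully separated pair could be no lower than 0.214, and at least 5 of the 6 would have had to separate fully to pass 0.05, so the adjusted values say little.

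The pair with the largest difference was Rpl22l1 to Rpl22, a pair known for Rpl22 protein holding down Rpl22l1. Rpl22l1 (chr3:28805508-28807424) was at 77.7, 74.6, 103.6, 97.3 and 92.8 CPM on the standard diet and 83.5, 81.5 and 62.4 CPM without BCAA, a log2 fold change of -0.24 (SE 0.14, adjusted p = 0.468 in edgeR) and the lowest of all 85 members. Rpl22 was at 414.9 ± 50.3 CPM (SD, n = 5) and 479.5 ± 66.9 CPM (SD, n = 3), with a log2 fold change of 0.21. The Rpl22l1 count was 17.5%, 22.4%, 25.9%, 21.8% and 20.6% of the Rpl22 count in standard-diet replicates 1 to 5 and 19.4%, 18% and 11.2% in BCAA-free replicates 1 to 3. BCAA-free replicate 3, the library richest in ribosomal protein RNA, had the lowest ratio, and the other 2 BCAA-free libraries lay within the range of the standard diet. The log2 ratio was lower by a mean difference of -0.44 (exact permutation p = 0.107, adjusted p = 0.643), and by -0.20 without BCAA-free replicate 3.

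**Figure D5:**
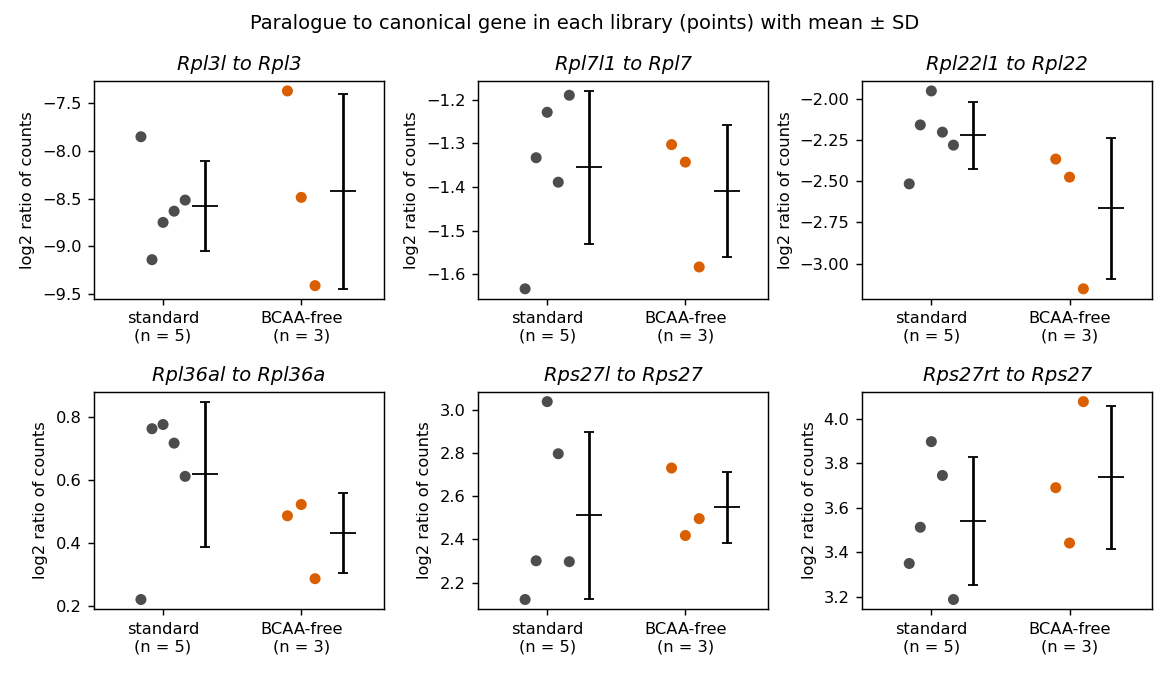
Log2 ratio of the paralogue's count to the canonical gene's count in each library (points) with mean ± SD on the standard (n = 5) and BCAA-free diet (n = 3) for the 6 pairs with enough counts. The groups overlap in all 6 panels; Rpl22l1 to Rpl22 is lowest in BCAA-free replicate 3.

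The Rpl36al count was 116.6% to 171.3% of the Rpl36a count on the standard diet and 122.1% to 143.7% without BCAA (exact permutation p = 0.286). Rpl7l1, a nucleolar relative of Rpl7, was at 32.2% to 43.8% and 33.4% to 40.5% of it (exact permutation p = 0.643). Rps27l, a p53-induced relative of Rps27, was at 435.4% to 820.8% and 534.5% to 663.3% of the Rps27 count (exact permutation p = 0.857), and the retrocopy Rps27rt at 910.6% to 1490% and 1086% to 1688% (exact permutation p = 0.393). Since 98.7% of the 38-base stretches of Rps27 and 91.4% of those of Rps27rt also occur elsewhere, how reads were shared between these 2 is uncertain, and the same holds for Rpl36a (85.9%).

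Of the canonical genes in these pairs, Rpl3 had a log2 fold change of 0.29 (SE 0.14), Rpl7 of 0.16 (SE 0.13) and Rps4x of 0.09 (SE 0.11), none called. The tissue-restricted paralogues were almost silent. Rpl3l, of heart and skeletal muscle, was at 0.227 to 1.27 CPM and at most 0.602% of Rpl3 (exact permutation p = 0.821). Rpl39l and Rpl10l, of the testis, had means over the libraries of 1.5 and 0.125 counts. Rpl39l was listed at 0 in standard-diet replicates 3 and 5 and in all 3 BCAA-free libraries, and Rpl10l in every library but BCAA-free replicate 3. These 3 are the members that did not pass the filter. Rps4l, considered as a relative of Rps4x, is a transcribed pseudogene in RefSeq and no member.

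Levels differed widely between genes whose proteins are needed in equal number. Mean CPM per kb of transcript ran from 13.3 for Rpl13 to 1233 for Rpl8, with a median of 160 over the 85 tested genes. A median of 53.0% of a gene's 38-base stretches, the read length, also occurred in an annotated transcript at another locus, and all 85 had at least 1 such pseudogene locus, the median being 11. Rpl13, Rps12 and Rps27, with 80.6%, 83.9% and 98.7% of stretches shared, had 13.3, 33.9 and 67.1 CPM per kb. Rpl8, Rps3 and Rpl4, with 9.21%, 5.61% and 24.5%, had 1233, 548 and 1188 CPM per kb. Rpl39, with 22.8% shared and 14.0 CPM per kb, and Rps27rt, with 91.4% and 760 CPM per kb, went the other way. Across the 85 genes the rank correlation was -0.01, as a description, so the genes named here are examples and no rule. The sources used here do not say how reads matching several places were counted, so such levels are uncertain.

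Across the tested genes the log2 fold change had a rank correlation of 0.0023 with the percentage of stretches shared, as a description. The part of shared stretches in the fold changes was not tested. The median log2 fold change was 0.21 over the 10 genes with under 25% of stretches shared, 0.22 over the 49 with 25% to 75%, and 0.27 over the 26 with at least 75%. Retrocopies listed as coding genes, singled out after their values were seen, gave ratios to their parents with differing spread. The Rpl32l count was 0.182 to 0.199 times that of Rpl32 over all 8 libraries, Rpl37rt 2.33 to 3.33 times Rpl37, and Rps23rg1 1.41 to 2.33 times Rps23, highest in BCAA-free replicate 3 for the last 2.

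Genes tied to disease had values near those of the other members. Of 18 members mutated in Diamond-Blackfan anaemia, a failure of red cell production, all 18 had a positive log2 fold change (median 0.22) and none was called (background 0.756%). At an unadjusted p under 0.05, 3 were higher (Rps10, Rps28 and Rpl11), against 23.5% of all tested members and 6.21% of all tested genes. All 5 genes of the rim of the exit tunnel were positive (median 0.25), without any at an unadjusted p under 0.05, and both genes of the mRNA entry channel were positive (Rps2 and Rps3, median 0.27). Fau, which encodes a ribosomal protein fused to a ubiquitin-like protein and falls outside the naming rule, was at 137.4 ± 17.4 CPM (SD, n = 5) and 164.2 ± 11.3 CPM (SD, n = 3), with a log2 fold change of 0.26 (SE 0.11), and was not called.

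Other genes of translation showed smaller values, and none passed the test in any of these lists. The 20 other genes with TOP mRNAs had 15 positive and 5 negative log2 fold changes (median 0.13), and none at an unadjusted p under 0.05. Among them Eef1a1, the factor that brings aminoacyl-tRNA, was at 4233, 3891, 4623, 4595 and 4493 CPM and at 4684, 4559 and 4872 CPM, and Eef2, which moves the ribosome along, at 2712, 2005, 2204, 2213 and 2069 CPM and at 2495, 2355 and 2893 CPM. Eef2 had standard-diet replicate 2 lowest and BCAA-free replicate 3 highest, as most ribosomal protein genes did. Pabpc1, the poly(A)-binding protein, was at 2817 ± 116.2 CPM (SD, n = 5) and 2702 ± 102.0 CPM (SD, n = 3), a log2 fold change of -0.06.

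The 36 initiation factor genes had a median log2 fold change of 0.05 (25 positive, 11 negative) and the 12 of elongation and termination 0.11 (7 positive, 5 negative), without any at an unadjusted p under 0.05. The 19 genes of TOP and S6 kinase control had a median of -0.06. Of these, 2 (Larp1b and Pdcd4) were lower at an unadjusted p under 0.05, against 7.26% of all tested genes. Larp1b, a relative of the TOP-binding protein Larp1, was at 36.6, 39.7, 42.7, 44.6 and 44.4 CPM and at 33.8, 32.0 and 26.1 CPM. The groups did not overlap, as for 4.68% of all tested genes in this direction (log2 fold change -0.44, SE 0.14, adjusted p = 0.162 in edgeR). Larp1 itself was at 593.1 ± 50.2 CPM (SD, n = 5) and 570.3 ± 58.3 CPM (SD, n = 3). Rps6kb1, the S6 kinase, was at 138.1 ± 11.6 and 124.8 ± 15.8 CPM. The 13 measured chaperones and importers of ribosomal proteins had a median of 0.04 with 2 higher at an unadjusted p under 0.05 (Grwd1 and Aamp). The 13 genes of ribosome quality control had -0.05 with 2 lower (Ltn1 and Ascc3). At that p 6.21% of all tested genes were higher and 7.26% lower.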

How the data were processed

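The authors deposited 1 table of raw counts per Entrez gene for the 8 libraries, of 38-base read pairs from polyadenylated RNA. Per the submitters' processing notes, the tools named are featureCounts and Cell Ranger and the build is mm10. The sources used here do not give the aligner, the strand setting or how reads matching several places were counted. RefSeq's GRCm38.p6 table named 25275 of 27179 identifiers.

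Counts were tested with edgeR 4.0.16 (R 4.3.3): robust quasi-likelihood fit, TMM factors, default filter (minimum count 10, total 15), no covariate besides diet, Benjamini-Hochberg adjustment over 13364 genes, threshold 0.05. CPM use TMM-scaled sizes. SE is the log2 fold change over the square root of F. The procedure was tested on simulated data. Alternatives used limma 3.58.1 and DESeq2 1.42.0. Transcript length (median of RefSeq-linked transcripts), GC and shared 38-base stretches came from GENCODE M21 (GRCm38), over both strands and loci that do not overlap the gene. Paralogue ratios had 0.5 added to each count and needed 10 counts of both genes in 3 libraries.

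Named genes were Rplp0 and Rps6, all paralogues, members of the P stalk, 5S and tunnel wall, the 5 smallest p, the 3 highest and 3 lowest fold changes, and the 2 highest levels per kb in each subunit. Members and lists were chosen with earlier results of these data known. A few named items are not reported here. Gene lists are described without a list test.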

Additional observations from a re-analysis of the deposited data

Results flagged for a closer look

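Of 40 values examined for 1 library far from the rest of the 5 standard-diet libraries (single genes, shares and paralogue ratios), 1 stood out, where chance marks about 1 in 20. Rpl36al was at 66.6 CPM in standard-diet replicate 2 and at 80.6 to 85.7 CPM in the other 4, a gap of 0.755 of the whole range on the log2 CPM scale, above the critical value of 0.71. That library was the lowest for 74 of the 85 tested members. Rpl36al lay 0.31 below its own mean there on the log2 scale, where the median of the members was -0.39. Its correlation with the other members was 0.97.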

How the results depend on the processing

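No ribosomal protein gene was called in either direction under any of the 19 alternatives. The median log2 fold change over the members ranged from 0.042, without standard-diet replicate 2 and BCAA-free replicate 3 together, to 0.29, and from 0.11 to 0.29 when single libraries were left out. The count at an unadjusted p under 0.05 and higher was 20, against 35 with upper-quartile factors, 35 with library totals only, 10 with the replicate block, 1 without those 2 libraries, and 2 to 37 when single libraries were left out. The small minus large difference was -0.02, and -0.031 to 0.030 when single libraries were left out. Over all genes 101 were called, against 237 with no filter, 376 in DESeq2, 64 in limma-voom and 32 to 134 without single libraries. With the replicate block none was called over all genes, and the members' median was 0.29. No label says that same-numbered libraries share an animal, day or batch. Their deviations correlated at -0.13, -0.03 and -0.34, and those of differently numbered pairs across the diets at -0.15 to 0.27. Such correlations cannot decide whether the numbers mark pairs. Scaling by upper-quartile factors or totals raised the median of all genes to 0.05 and 0.06.

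Signs turned for genes near 0 and also for some with larger values, such as Rpl7 (0.16 with all libraries), Rps24 (0.16) and Rps6 (0.14). Rpl39 went to 0.0070 with library totals and 0.028 in limma-voom (-0.38 to 0.14 over single libraries left out), Rpl10 to -0.045 and Rps13 to -0.088 with GC and length trends removed (-0.023 to 0.091 and -0.039 to 0.062), and Rps6 ranged from -0.0078 to 0.22. Without standard-diet replicate 2 and BCAA-free replicate 3 together, Rpl10 was -0.043, Rpl36al -0.0058, Rpl7 -0.056, Rpl7l1 -0.016, Rps13 -0.068, Rps24 -0.021 and Rps6 -0.090. With single libraries left out, the difference in log2 ratio ranged from -0.37 to 0.65 for Rpl3l to Rpl3, -0.12 to 0.032 for Rpl7l1 to Rpl7 and -0.060 to 0.17 for Rps27l to Rps27. The cause was not tested. Depth limited Rpl3l, Rpl39l and Rpl10l, with means of 13.4, 1.5 and 0.125 counts a library.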
